A study of Mus musculus with 12 samples.

Results

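Heat shock proteins and chaperones were followed as the 75 mouse genes whose name on the array begins with Hsp, Hsf, Dnaj or Cct followed by the family's letter or number. They were taken from 27962 gene names and covered 143 probes. Each gene was represented by its probe with the highest mean signal over both channels. Of the 75 genes, 70 passed the filter on dim probes and 69 were tested among 20499 genes. Dnajb7, Dnajb8, Dnajb13, Dnajc5b and Hspb3 did not pass the filter, and every spot of Hsf2bp carried an outlier flag. The array's older names Hsp110, Hspa9a, Dnajb10 and Hspc171 stand for Hsph1, Hspa9, Dnajb2 and Tmem208, the last of which is no chaperone. Hsf2bp and Hspbap1 were likewise matched by name only.

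The study set 8 mouse mammary tumors labelled ShcA-null, which its design text calls NIC SHC null tumors, against 1 pool of NIC tumors that was hybridised on every array. In the NIC model an activated Neu receptor and Cre recombinase are expressed together in the mammary epithelium, so both RNAs come from Neu-driven tumors. All values are log2 ratios of tumor over pool on two-colour arrays: on 8 first arrays the tumor RNA carried Cy5, and on 4 swapped arrays, labelled tumors 1 to 4, it carried Cy3. The labels give no age, strain or promoter and not how many animals went into the pool or whether each tumor is from another animal. The p-values therefore speak only of the spread among these 8 samples, and the spread of control tumors is not in them, because the control is 1 pool. Because the tumors were measured in bulk, fewer cells of a type and less RNA per cell cannot be told apart.

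Chaperones hold newly made or damaged proteins in a state from which they can fold. Hsp70 proteins bind exposed stretches with the help of J-domain proteins (the Dnaj genes), which deliver clients and trigger ATP hydrolysis; Hsp90 acts later on kinases and receptors, ErbB2 among its best-known clients; and the chaperonins Cct and Hspd1/Hspe1 fold proteins inside a closed chamber. The heat shock factor Hsf1 switches on the inducible members when unfolded protein builds up, and tumor cells are known to lean on this system.

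The sequences behind 3 results are shown here. The genes of the mitochondrial chaperonin, Hspd1 and Hspe1, lie head to head, and the 215 bases between their starts (RefSeq, GRCm38.p6, chr1:55087933-55088147, plus strand) are given because both genes stood highest in the same tumor. Capitals mark 2 overlapping heat shock elements, the inverted repeat bound by Hsf1.

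Hspd1-Hspe1: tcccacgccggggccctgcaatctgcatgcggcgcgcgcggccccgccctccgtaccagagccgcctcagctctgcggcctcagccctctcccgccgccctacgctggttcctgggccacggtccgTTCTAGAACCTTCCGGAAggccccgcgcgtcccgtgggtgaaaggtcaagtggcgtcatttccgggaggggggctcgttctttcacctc

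The element was searched in the 250 bases before each RefSeq start, on both strands, as the units GAA, TTC and GAA or the units TTC, GAA and TTC, with NN between units; such matches can overlap. Promoters of 60 members were matched, and 3 of them held it (Hspd1, Hspe1 and Dnajb6; 5.0%), as did 0.514% of 27025 genes with a promoter sequence. The matches of Hspd1 and Hspe1 are the same bases, those marked above, counted once for each gene. The endoplasmic reticulum stress element, CCAAT and CCACG parted by 9 free bases, searched likewise, was found in 3 of the 60 (Hspa5, Hsp90b1 and Dnajc3; 5.0%), as it was in 0.13% of all. It is marked by capitals in the 250 bases before the start of Hspa5 (RefSeq, GRCm38.p6, chr2:34771840-34772089, plus strand), which encodes the Hsp70 of that compartment. The brightest probes of Hspa5 and Hsp90b1 read higher on the first array than on its best-matching swapped array (1.5 ± 0.55 and 1.83 ± 0.66), whereas that of Dnajc3 read lower (-0.38 ± 0.06; SD, n = 4 pairs for each). These differences set arrays of unlike dye and slide against each other and say nothing of the element. A match describes the letters of the window and shows no binding.

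Hspa5: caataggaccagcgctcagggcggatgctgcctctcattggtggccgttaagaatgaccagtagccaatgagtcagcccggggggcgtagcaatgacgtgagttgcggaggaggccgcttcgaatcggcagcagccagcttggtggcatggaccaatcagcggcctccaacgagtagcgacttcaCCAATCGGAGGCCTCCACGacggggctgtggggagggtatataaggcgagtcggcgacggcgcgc

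Probes of 60 bases carry the measurements. Those of Dnajc1 (chr2:18282439-18284623, minus strand) and Hspb1 (chr5:134860337-134860524, plus strand) are shown for a gene that was lower and a gene that varied between tumors. The upstream probes of Cct2 (chr10:116569240-116569393, minus strand) and Dnajb6 (chr5:28783916-28785324, plus strand) are shown because they read far lower than the downstream probe of the same transcript in tumor 6. Per the file headers the coordinates are of build mm7, and each of the 4 placements is longer than the probe, so that the probe spans an intron and reads spliced RNA. No part is capitalised.

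Dnajc1: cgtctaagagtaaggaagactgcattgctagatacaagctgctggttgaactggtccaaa

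Hspb1: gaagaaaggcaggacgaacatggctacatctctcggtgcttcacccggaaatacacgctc

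Cct2: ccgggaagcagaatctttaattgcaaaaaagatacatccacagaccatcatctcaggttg

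Dnajb6: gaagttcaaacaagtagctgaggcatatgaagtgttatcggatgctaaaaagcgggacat

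Several libraries stood apart or went against their labels. Shc1, which encodes ShcA, had a log2 ratio of -2.05 on the first array of tumor 3, against -0.02 to 0.71 on the other first arrays. It was -2.23 on the swapped array labelled 2, against 0.45 to 0.74 on the other swapped arrays. It averaged 0.13 ± 0.66 (SD, n = 8; limma adjusted p = 0.695). The labels do not say which part of the gene was deleted, and a probe outside it checks nothing. Over 12961 genes that are no chaperones, and after the mean of its dye orientation was subtracted from each gene, the swapped arrays labelled tumors 1, 2, 3 and 4 correlated best with the first arrays of tumors 1 (0.70), 3 (0.91), 4 (0.59) and 8 (0.83). With the first array of its own label, the swapped array correlated at -0.18 for tumor 2, -0.60 for tumor 3 and 0.07 for tumor 4. Without that subtraction these 3 correlations were 0.11, 0.07 and 0.18, against 0.80, 0.26 and 0.64 with the best match. The 8-tumor means below average the arrays as labelled, so values by tumor are given from first arrays, with the swapped arrays beside them. If the best matches hold, the averages for labels 2, 3 and 4 each mix different tumors. Tumors 3, 4 and 8 then each enter more than 1 average. Labels 1 to 4 also average both dye orientations, while the other labels hold Cy5 alone. The SDs, limma p-values and sign-flip p-values over 8 tumors treat these averages as independent and alike, and do not account for this. Of 10 mammary epithelial markers tested, 10 were well above background in the tumor RNA on every array, with list medians of 0.00 to 0.50 on the first arrays.

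The chaperones moved in both directions. Of the 9 genes called lower, 7 encode J-domain co-chaperones, which made up 20 DNAJC, 9 DNAJB and 4 DNAJA of the 69 members. In the 8-tumor fit (limma, Benjamini-Hochberg adjusted p under 0.05 over all 20499 genes), 16 of 69 members were called (23.2%), while 17.1% of all genes were. Of these, 7 were higher (Hspa8, Hsf1, Hsf4, Hsp90aa1, Cct5, Cct2 and Dnajc13; 7.33% of all genes were) and 9 lower (Dnajc6, Dnaja4, Dnajc1, Hspa1a, Hspa2, Dnajb1, Dnajc18, Dnajb12 and Dnajc19; 9.79% of all genes were). The median of the member means was -0.08, that of all genes 0.00. Of the J-domain classes, DNAJC had 1 of 20 higher and 4 lower (median -0.15), DNAJB 2 of 9 lower (median -0.11) and DNAJA 1 of 4 lower (median -0.28), with no other calls. The Hsp70 and Hsp110 genes had 1 of 12 higher and 2 lower (median -0.03), while 0 of 6 small heat shock proteins were called by limma (median 0.25), and 1 had an unadjusted p under 0.05. With median centring in place of loess the median of all genes moved to 0.16 and that of the members to 0.32, and 14 members were called higher and 3 lower (11.7% and 4.79% of all genes). With a dye term and the arrays paired as labelled, limma called 19 of 69 members (27.5%; 22.0% of all genes), 9 higher and 10 lower. With a dye term and each swapped array paired instead with its best match, called the best-match dye fit below, it called 6 of 69 members (8.7%; 7.78% of all genes), namely Cct8 higher and Dnajc6, Dnaja4, Dnajc1, Dnajc4 and Hspa1a lower. Of these, 4 were called by both fits with the same sign (5.8%; 6.84% of all genes), and all 4 were lower. All 8 tumors had 1 sign in 12 members (17.4%; 14.4% of all genes), and 30 had an unadjusted limma p under 0.05 (43.5%; 33.4% of all genes).

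The count of called members moved with the arrays and values used. The first arrays alone gave 18 of 69 (26.1%; 21.8% of all genes) and the swapped arrays alone 11 (15.9%; 8.06%). The slide as a random block gave 6 (9.1% of all genes), the first arrays of tumors 1 to 4 gave 6 (5.6%) and those of tumors 5 to 8 gave 0 by limma (0.0246%), with 20 members at an unadjusted p under 0.05. The Feature Extraction log ratio gave 6 (16.1% of all genes) and the deposited log2 values of the authors gave 10 of 70 (19.9%). Intensities without background correction and the furthest downstream probe on the brightest probe's accession gave 16 (18.1% and 16.9%). For these 16 members the furthest downstream probe was the brightest probe itself, so their values were those of the 8-tumor fit. Leaving out 1 tumor gave from 4 members without tumor 4 (9.62% of all genes) to 17 without tumor 6 (22.3%).

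The gene furthest below the pool was Dnajc6, which encodes auxilin, the J-domain protein that recruits Hsp70 to strip the coat from clathrin vesicles and that is best known from neurons. Its log2 ratio was -1.65, -3.92, -1.97, -1.75, -2.39, -3.32, -3.54 and -5.05 for the first arrays, tumors 1 to 8, and -0.69, -1.54, -1.17 and -4.93 on the swapped arrays labelled 1 to 4. Every array lay below the pool, and the level in tumor 8 and on the swapped array that matches it was lowest. The mean was -2.89 ± 1.22 (SD, n = 8), a 7.41-fold lower level, with a limma adjusted p of 0.00226 and an exact two-sided sign-flip p of 0.00781, the smallest that 8 tumors allow. The array holds 1 probe for the gene (accession NM_198412 in the file, chr4:101018867-101018926).

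Dnaja4 encodes a J-domain protein of the DNAJA class, which carries out the general delivery of clients to cytosolic Hsp70. Its log2 ratio was -1.04, -0.82, -1.15, -1.12, -0.63, -0.51, -0.50 and -1.31 for the first arrays, tumors 1 to 8, and -1.44, -1.57, -1.50 and -1.76 on the 4 swapped arrays. All 12 arrays lay below the pool, and every swapped array lay below every first array. The mean was -1.02 ± 0.40 (SD, n = 8; limma adjusted p = 0.00286, exact sign-flip p = 0.00781), a 2.03-fold lower level. A second probe 9785 bases upstream did not follow it: outside tumors 6 and 7 its first arrays averaged -0.04, against -1.01 for the brighter probe.

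Dnajc1 encodes a J-domain protein of the endoplasmic reticulum membrane that binds the compartment's Hsp70. On the first arrays of tumors 1 to 8 the spliced probe shown above gave -0.88, -1.08, -0.90, -1.16, -0.86, -1.60, -1.71 and -0.94. The swapped arrays gave 0.02, -0.46, -0.35 and -0.35. Tumors 6 and 7 were lowest, and every swapped array lay above every first array. The mean was -0.96 ± 0.46 (SD, n = 8; limma adjusted p = 0.00501, exact sign-flip p = 0.00781). Of its 3 other kept probes, 1 on the same accession gave -0.99 ± 1.15 and the other 2 gave -0.06 ± 0.46 and -0.40 ± 0.84 (SD, n = 8 for each), so the size rests on the probe. In tumors 6 and 7 the first arrays of these 3 probes averaged -2.81, -0.35 and -1.72. On the other first arrays they averaged -0.55, 0.00 and -0.21, against -0.97 for the probe shown. Their swapped arrays averaged -0.10, -0.10 and 0.51.

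Hspa1a encodes the classical stress-inducible Hsp70, barely made in unstressed cells. Its near-identical neighbour Hspa1b has no probe of that name here, and RNA of the pair could not be told apart by name. The log2 ratio of Hspa1a was -2.02, -0.55, 0.35, -0.89, -1.37, -1.72, -1.32 and 0.05 for the first arrays, tumors 1 to 8, and -1.84, 0.21, -0.97 and -0.05 on the swapped arrays labelled 1 to 4. Tumors 3 and 8 lay near the pool, as did the swapped arrays that match them, and the other 6 tumors lay below it. The mean was -0.91 ± 0.77 (SD, n = 8; limma adjusted p = 0.0317, exact sign-flip p = 0.0156). Without tumors 6 and 7 the mean was -0.70 and the call was lost (limma adjusted p = 0.0894). The second brightest probe gave -0.95 ± 0.78 and the other 2 gave -0.38 ± 1.03 (SD, n = 8) and -0.83 ± 0.63 (SD, n = 7). In tumors 6 and 7 the first arrays of these probes averaged -1.68, -1.84 and -1.55. On the other first arrays they averaged -0.79, 0.25 and -0.38, so that 1 of them lay above the pool there.

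**Figure D1:**
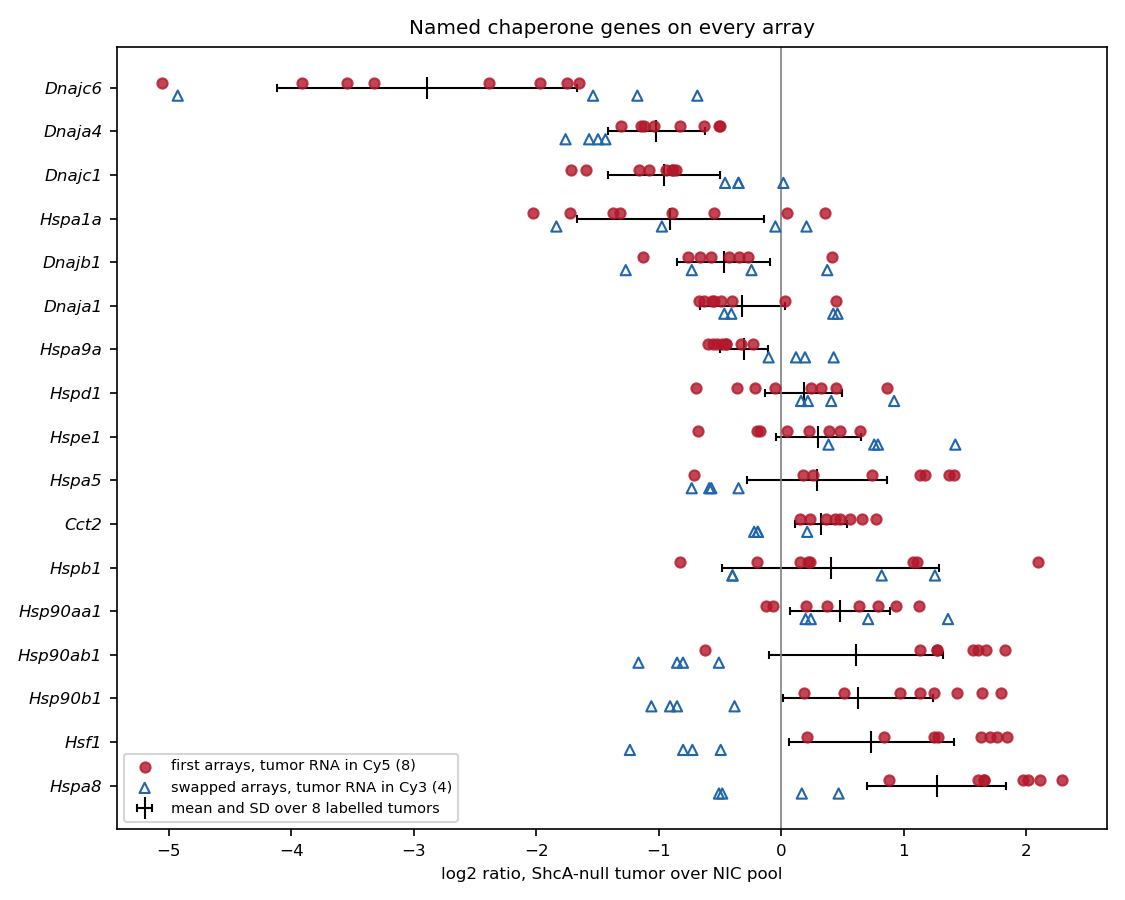
Log2 ratio of ShcA-null tumor over NIC pool (x axis) for 17 named chaperone genes, on 8 first arrays (filled points) and 4 swapped arrays (triangles), with the mean and SD over 8 labelled tumors (bars). Dnajc6 and Dnaja4 lie left of 0 on all 12 arrays, while Hsf1 and Hsp90b1 lie right of 0 on every first array and left of it on every swapped array.

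For Hspa8, Hsf1, Hsp90ab1 and Hsp90b1 the brightest probe gave a higher ratio on the first arrays than on the swapped arrays. Outside tumors 6 and 7, other probes of Hspa8, Hsf1 and Hsp90ab1 gave no change of direction in the mean. A second probe of Hsp90b1 changed direction the other way. It averaged -0.11 on the first arrays outside tumors 6 and 7 and 0.31 on the swapped arrays, with values on both sides of the pool in each. Hspa8, which encodes the constitutive cytosolic Hsp70, had the highest mean of all members. Its brightest probe's first arrays of tumors 1 to 8 gave 1.65, 2.11, 1.65, 2.29, 1.97, 0.87, 1.60 and 2.01. Its swapped arrays gave -0.51, 0.47, -0.48 and 0.17. Every first array lay above every swapped array. The 8-tumor mean of 1.27 ± 0.57 (SD, n = 8; limma adjusted p = 0.00341, exact sign-flip p = 0.00781) was 0.84 with a dye term and labelled pairs (limma adjusted p = 0.00127) and 0.78 in the best-match dye fit (limma adjusted p = 0.194). A second probe of Hspa8 gave 0.46 to 0.98 on the first arrays outside tumors 6 and 7, -4.47 and -4.37 in these, and 0.64 to 0.96 on the swapped arrays. Both probes are placed on chr 5 in mm7, whereas RefSeq places Hspa8 on chr 9, so RNA of another copy of this multicopy gene could not be told apart.

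Hsf1 is the master regulator of the heat shock response. The brightest probe (accession Z49206) had first-array log2 ratios of 1.63, 1.28, 1.25, 1.84, 1.70, 0.21, 0.84 and 1.76 for tumors 1 to 8 and swapped-array ratios of -0.73, -0.80, -1.24 and -0.49. The groups of arrays did not overlap. The mean of 0.74 ± 0.67 (SD, n = 8; limma adjusted p = 0.0441, exact sign-flip p = 0.00781) was 0.25 with a dye term and labelled pairs (limma adjusted p = 0.24) and 0.10 in the best-match dye fit (limma adjusted p = 0.852). The 2 other probes, both on accession NM_008296, averaged 0.87 and 0.82 on the first arrays and 0.09 and 0.06 on the swapped arrays. Hsf4, a factor best known for its role in the lens, kept its sign in both orientations, with 0.68 ± 0.49 on first arrays (SD, n = 8), 0.46 ± 0.32 on swapped arrays (SD, n = 4) and a mean of 0.65 ± 0.45 (SD, n = 8; limma adjusted p = 0.0205). With a dye term Hsf4 was called with labelled pairs (0.57, limma adjusted p = 0.00964) and not with best matches (0.50, limma adjusted p = 0.176). Hsf2, a factor active in development, averaged -0.74 ± 0.84 (SD, n = 8) and was not called (limma adjusted p = 0.0819).

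Of the 3 Hsp90 genes, 1 was called over the 8 tumors. Hsp90aa1, the stress-inducible cytosolic form, was higher, with -0.12, 0.64, 1.13, 0.94, 0.20, 0.79, 0.38 and -0.07 for the first arrays, tumors 1 to 8, and 0.20, 1.36, 0.71 and 0.24 on the swapped arrays. Tumors 1 and 8 lay at the pool and tumor 3 and its matching swapped array highest, for a mean of 0.48 ± 0.41 (SD, n = 8; limma adjusted p = 0.0466, exact sign-flip p = 0.0234). With a dye term Hsp90aa1 stood at 0.56 in both pairings and was called with labelled pairs (limma adjusted p = 0.0159) and not with best matches (limma adjusted p = 0.0865). Hsp90ab1, the constitutive cytosolic form, averaged 1.21 ± 0.78 on first arrays (SD, n = 8) and -0.83 ± 0.27 on swapped arrays (SD, n = 4). A second probe of Hsp90ab1 averaged 0.22 on the first arrays outside tumors 6 and 7 and 0.56 on the swapped arrays. Hsp90b1, the form of the endoplasmic reticulum, averaged 1.11 ± 0.55 (SD, n = 8) and -0.80 ± 0.29 (SD, n = 4) on first and swapped arrays. Over 8 tumors Hsp90ab1 and Hsp90b1 were not called (means of 0.61 and 0.63; limma adjusted p = 0.0935 and 0.0583), and the exact sign-flip p was 0.0625 and 0.0234. Without tumors 6 and 7 Hsp90ab1 had a mean of 0.73 and was called (limma adjusted p = 0.0352).

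**Figure D2:**
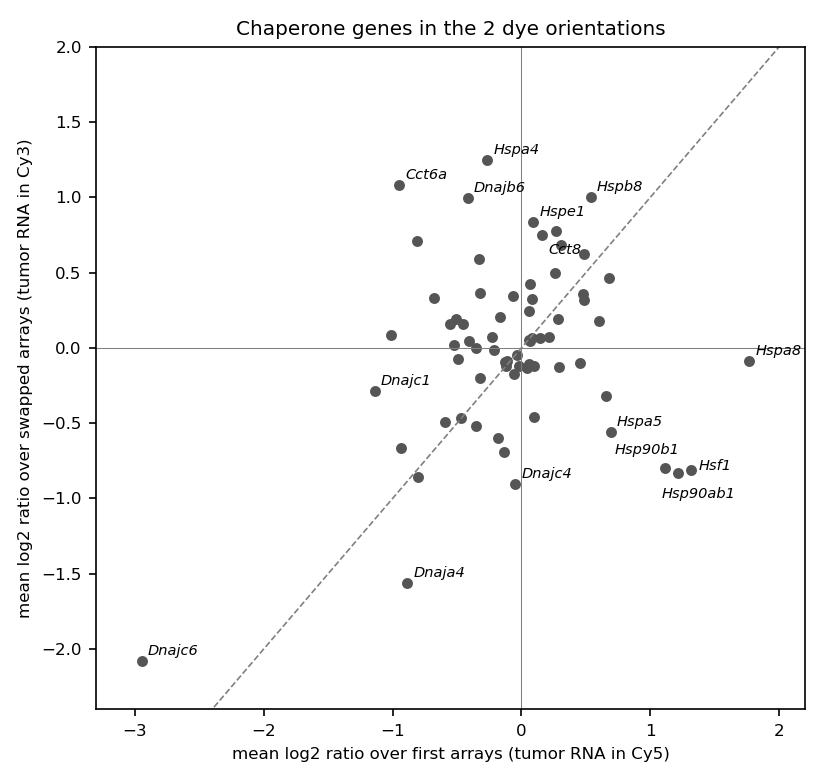
Mean log2 ratio of tumor over pool on 8 first arrays (x axis) against 4 swapped arrays (y axis) for the brightest probe of the 69 chaperone genes tested; the dashed line marks equal values. Hsf1, Hsp90ab1, Hsp90b1 and Hspa5 lie above the pool on first arrays and below it on swapped arrays. Hspa4, Dnajb6 and Cct6a lie the other way, Cct6a only through tumors 6 and 7, without which its first arrays averaged 0.11. Dnajc6 and Dnaja4 lie below the pool in both.

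The dye orientation reached beyond these genes, and slide and dye cannot be told apart, since the swapped arrays fill a slide of their own. For 16 of 69 members no first array overlapped a swapped array (23.2%; 11.7% of all genes): 6 had every swapped array below every first array (Dnaja4, Dnajc4, Dnajc17, Hsf1, Hsp90b1 and Hspa8; 7.02% of all genes) and 10 had it above (Cct3, Cct6a, Cct8, Dnajb6, Dnajb12, Dnajc1, Dnajc10, Hsf2, Hspa4 and Hspa9a; 4.72% of all genes). First and swapped means had opposite signs in 29 members (42.0%; 43.2% of all genes). These means cover unlike sets of tumors, since no swapped array was labelled or matched to tumor 6 or 7. For Cct6a and Cct3 the first-array means of -0.95 and -0.81 became 0.11 and 0.01 without tumors 6 and 7. The first array minus its best-matching swapped array gave -1.55 ± 0.19 for Hspa4, -1.49 ± 0.08 for Dnajb6 and -1.03 ± 0.23 for Dnajc10 (SD, n = 4 pairs for each). Dnajb6 encodes a J-domain protein that suppresses protein aggregation, and Hspa4 an Hsp110-type partner of Hsp70. The part of the dye and that of the slide in these differences were not tested. Hspa9a, the mitochondrial Hsp70, is one of these: it averaged -0.45 ± 0.12 on first arrays (SD, n = 8) and 0.16 ± 0.22 on swapped arrays (SD, n = 4), and its mean of -0.30 ± 0.20 (SD, n = 8) was not called (limma adjusted p = 0.0551, exact sign-flip p = 0.00781). Hspa5 averaged 0.69 ± 0.74 (SD, n = 8) and -0.56 ± 0.16 (SD, n = 4) on first and swapped arrays, with a mean of 0.29 ± 0.57 (SD, n = 8; limma adjusted p = 0.305, exact sign-flip p = 0.203).

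Tumors 6 and 7 differed from the others in how a transcript's probes agreed. In 27 member transcripts with 2 kept probes at least 500 bases apart on mm7, the upstream probe read lower than the downstream probe by over 1 log2 unit in 18 transcripts of tumor 6 and 11 of tumor 7, against 1 to 3 on the other first arrays and 0 on the swapped arrays. The median difference was -1.95 in tumor 6 and -0.64 in tumor 7, and -0.11 to 0.37 on the other first arrays. Over all genes with such pairs (3769) the medians were -1.12 and -0.74, against 0.01 to 0.46, so the pattern was not limited to chaperones. The upstream probe read over 1 log2 unit lower in 52.9% of these pairs in tumor 6 and 43.2% in tumor 7. The shares of member pairs were 66.7% and 40.7%. Per the labels' protocol, 500 ng of total RNA went through 1 round of T7 amplification. No measure of RNA quality was given with these samples, and its part was not tested.

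**Figure D3:**
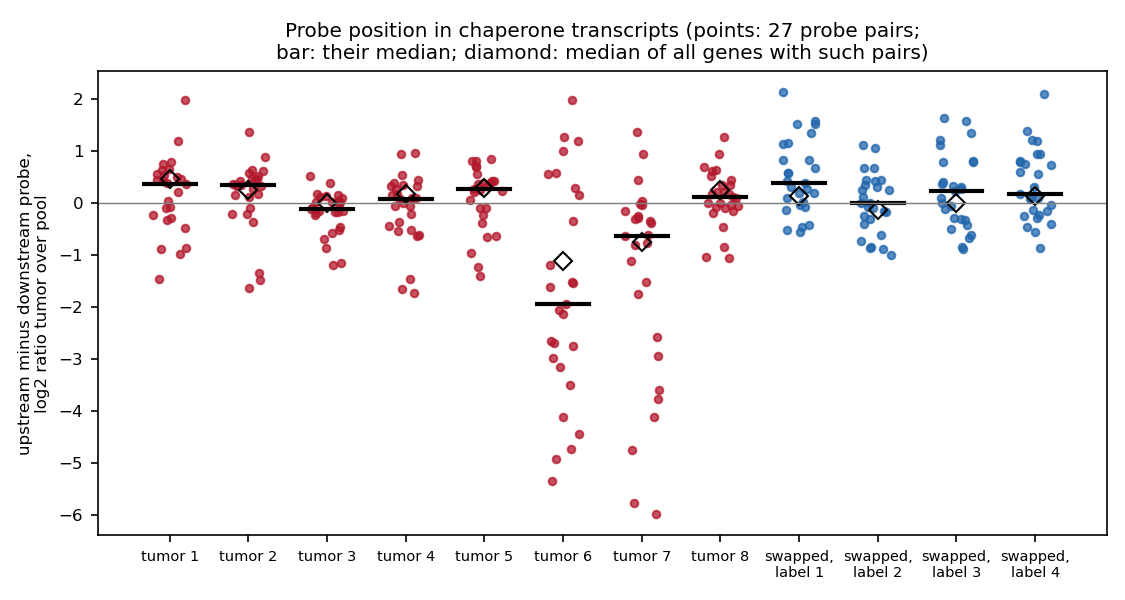
Difference in log2 ratio (tumor over pool) between the upstream and the downstream probe of 27 chaperone transcripts on each array (points; the bar is their median), with the median over all genes with such pairs (diamond). Tumors 6 and 7 reach below -4, with medians of -1.95 and -0.64, while the other arrays have medians of -0.11 to 0.40.

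Cct2 shows what this does to a value. Its downstream probe gave 0.44, 0.15, 0.37, 0.77, 0.48, 0.66, 0.56 and 0.24 for the first arrays, tumors 1 to 8, and the spliced upstream probe shown above 0.38, 0.06, 0.18, 0.16, 0.39, -3.79, -3.54 and 0.19. The probes lay within 0.62 of each other in 6 tumors and over 4 log2 units apart in tumors 6 and 7. Upstream minus downstream was -4.73 and -4.75 in tumors 6 and 7 for Hspa4, and -3.49 and -0.80 for Dnajb6. It was -5.34 and -5.98 for Hspa8 and -4.93 and -5.77 for Hsp90b1, whose upstream and downstream probes also differed by over 1 log2 unit in the mean of the other tumors. The upstream probe read over 1 log2 unit higher in tumor 6 for 4 transcripts, those of Dnajc3 (1.98), Dnajc5 (1.28), Dnajb5 (1.21) and Dnajc19 (1.01).

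The cytosolic chaperonin is the ring that folds actin and tubulin. It was represented by 8 tested Cct genes, among them Cct6b, a second form of the Cct6a subunit; Tcp1, another subunit, does not carry the name. Over the 8 tumors Cct5 (0.38 ± 0.25, limma adjusted p = 0.0345) and Cct2 (0.33 ± 0.21, limma adjusted p = 0.0483; SD, n = 8 for both) were called higher and the other 6 were not called. Cct2 had an exact sign-flip p of 0.00781, and without tumors 6 and 7 it was not called (0.23, limma adjusted p = 0.0733). On the swapped arrays Cct2 averaged -0.10 and Cct5 0.68. With a dye term Cct2 was called neither with labelled pairs (0.18, limma adjusted p = 0.121) nor with best matches (0.18, limma adjusted p = 0.597). Cct5 was called with labelled pairs (0.49, limma adjusted p = 0.00399) and not with best matches (0.52, limma adjusted p = 0.126). Cct6a stood at -4.48 and -3.75 in tumors 6 and 7, against -0.11 to 0.23 on the other first arrays. Without tumors 6 and 7 the Cct6a mean was 0.44 and called higher, with 0.11 ± 0.13 on the first arrays (SD, n = 6) and 1.08 ± 0.12 on the swapped arrays (SD, n = 4). Cct3 was at -4.02 and -2.50 in these tumors, against -0.34 to 0.27 in the others. The low values of Cct7 (-2.59) and Cct6b (-2.01) were found in tumor 6. Outside tumor 6 the median of the 8 genes lay between 0.02 and 0.30 on every first array, and on the swapped arrays between 0.23 and 0.52. Cct8 averaged 0.16 ± 0.20 on first arrays (SD, n = 7) and 0.75 ± 0.30 on swapped arrays (SD, n = 4), and was called in the best-match dye fit (0.48, limma adjusted p = 0.0254) but not over the 8 tumors (0.33, limma adjusted p = 0.0598).

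The mitochondrial chaperonin varied between tumors on the first arrays and lay above the pool on the swapped arrays. Hspd1, its large subunit, gave -0.70, -0.22, 0.86, -0.06, -0.36, 0.44, 0.33 and 0.24 for the first arrays, tumors 1 to 8, and 0.22, 0.92, 0.16 and 0.41 on the swapped arrays. Its lid subunit Hspe1 gave -0.68, -0.20, 0.64, 0.22, -0.18, 0.39, 0.05 and 0.48, and 0.38, 1.42, 0.79 and 0.76. For both genes, tumor 1 was lowest and tumor 3 highest on the first arrays, and the swapped array labelled 2, which matches tumor 3, was highest among the swapped arrays. Neither was called, with means of 0.18 ± 0.32 and 0.30 ± 0.35 (SD, n = 8; limma adjusted p = 0.318 and 0.132, exact sign-flip p = 0.156 and 0.0547). With median centring both were called higher (0.85 and 0.90; limma adjusted p = 0.0402 and 0.0199), and with a dye term and labelled pairs Hspe1 was (0.46, limma adjusted p = 0.0235).

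Tumor 3 held the highest first-array value of 22 of the 62 members measured on all first arrays (35.5%), while it held that of 21.8% of all genes. A group of 9 heat-inducible chaperones (Hspa1a, Hsp110, Dnajb1, Hsp90aa1, Hspd1, Hspe1, Hspb1, Hspa4l and Dnaja1) was put together after their values were seen, so its level in tumor 3 is a description and supports nothing. It had its median at 0.64 in tumor 3 and at 0.82 on the swapped array that matches it, against -0.68 to -0.07 on the other first arrays and -0.24 to 0.20 on the other swapped arrays. Hsp110, a nucleotide exchange partner of Hsp70, gave 1.01 in tumor 3 and 1.39 on its matching swapped array, against -0.85 to -0.26 on the other first arrays. Dnajb1, the stress-inducible J-domain partner of Hspa1a, gave 0.41 and 0.37 on these arrays, and -1.13 to -0.27 on the other first arrays. Its mean was -0.47 ± 0.38 (SD, n = 8; limma adjusted p = 0.0418, exact sign-flip p = 0.0156). Without tumors 6 and 7 Dnajb1 lost its call (-0.46, limma adjusted p = 0.0721). Dnaja1, the main DNAJA partner of Hspa8, gave 0.44 in tumor 3 on its brightest probe, with -0.67 to 0.03 on the other first arrays and a mean of -0.32 ± 0.35 that was not called (SD, n = 8; limma adjusted p = 0.116, exact sign-flip p = 0.0625). On the 2 other probes of Dnaja1 tumor 1 was highest (0.51 and 1.06, against 0.28 and 0.72 in tumor 3), and they averaged -0.22 ± 0.49 and 0.40 ± 0.59 (SD, n = 8 for both).

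**Figure D4:**
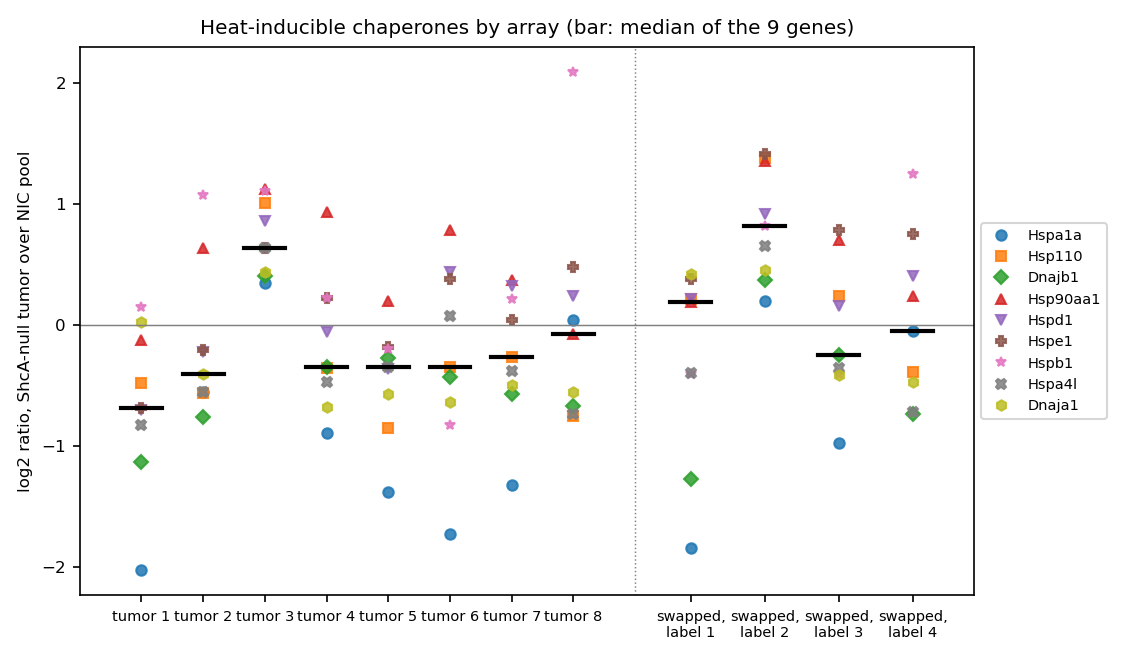
Log2 ratio of tumor over pool for 9 heat-inducible chaperones, chosen after their values were seen (symbols), on each array, with their median (bar). In tumor 3 and on the swapped array labelled 2, which matches it, all 9 lie above the pool; on the other arrays at least 4 lie below it.

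Markers of several other cell types moved with tumor 3. The markers that stood over 1 log2 unit above the pool on both its arrays were counted. Of 9 fibroblast markers, 9 did so (list median 3.62 on the first array, -1.12 to 0.86 on those of the other tumors). So did 11 of 13 skeletal muscle, 11 of 12 macrophage, 7 of 8 neutrophil and 6 of 8 myoepithelial markers, and 2 of 10 mammary epithelial ones. None of these lists held a marker that was below background in all tumor RNA. In the remaining cell type lists, 5 of 10 B and plasma cell, 3 of 12 adipocyte, 3 of 11 T cell and 3 of 10 endothelial markers did so. Of 5 erythroid markers 0 did, and their list medians were -0.72 on the first array and -2.48 on the matching swapped array. On the first array of tumor 3 the muscle list median was 3.37 (0.03 to 1.15 in the others) and the macrophage list median 1.90 (-0.46 to 0.42). Their part in the heat-inducible values was not tested.

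The small heat shock proteins hold unfolding proteins without ATP, and Hspb8 and Hspb1 varied widely between tumors. Hspb8, which works with Bag3 in the disposal of aggregated proteins, gave -0.18, 0.34, 2.08, 0.15, -0.18, -1.55, -0.03 and 3.67 for the first arrays, tumors 1 to 8, and -0.29, 1.59, -0.27 and 2.98 on the swapped arrays. Hspb1, an estrogen- and stress-responsive protein that also binds actin, gave 0.15, 1.07, 1.11, 0.23, -0.20, -0.82, 0.22 and 2.10, and -0.40, 0.82, -0.40 and 1.25. Tumors 8 and 3 and the swapped arrays that match them were highest for both genes. Over the first arrays without tumors 6 and 7 Hspb8 had an SD of 1.56 and Hspb1 of 0.85, against a median SD of 0.36 over the 69 members and 0.34 over all genes. Neither was called (0.64 ± 1.55 and 0.40 ± 0.88, SD, n = 8; limma adjusted p = 0.372 and 0.335), and the exact sign-flip p was 0.32 and 0.242. Hspb6, known from muscle, stood at -2.27 and -1.54 in tumors 6 and 7 and at 0.18 to 1.18 on the other first arrays. Without tumors 6 and 7 the mean of Hspb6 was 0.63, called higher.

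Of the remaining called genes, Hspa2, an Hsp70 needed for sperm formation, gave -0.80, -0.98, -2.07, -0.99, -0.79, 0.11, -0.43 and -0.48 on the first arrays of tumors 1 to 8, lowest in tumor 3 and at the pool in tumor 6. It averaged -0.72 ± 0.54 (SD, n = 8; limma adjusted p = 0.0253). Dnajc18 (-0.41 ± 0.28), Dnajb12 of the endoplasmic reticulum membrane (-0.37 ± 0.18) and Dnajc19 of the mitochondrial import motor (-0.36 ± 0.23) were lower, and Dnajc13 of endosomal sorting (0.32 ± 0.21) was higher (SD, n = 8 for each). Dnajc13 and Dnajc18 had the same sign on first and swapped arrays (0.26 and 0.50 for Dnajc13, -0.35 and -0.52 for Dnajc18), whereas Dnajb12 stood at -0.52 on first arrays and 0.019 on swapped arrays. In a fit without tumors 6 and 7, chosen after seeing the data, 15 members were called by limma (21.7%; 24.8% of all genes), among them Dnajc12 lower (-0.54) and Dnajb4 lower, and Hsf1, Cct2, Hspa1a, Dnajb1, Hsp90aa1 and Dnajc18 were no longer called. When dye was added to that fit and best matches were paired, 10 were called (14.5%; 12.2% of all genes), of which Dnajc6, Dnaja4 and Dnajc1 were called in all 4 of these fits.

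In the lists of chaperone partners, the shares called over 8 tumors can be read against the 17.1% of all genes. Of 26 co-chaperones of Hsp70 and Hsp90 tested, 1 was lower, the Hsp90-bound cyclophilin gene Ppid (-0.43 ± 0.31, SD, n = 8; limma adjusted p = 0.0343), and 25 were not called (list median -0.09). Of 11 prefoldin and chaperonin cofactor genes, and of 18 genes of mitochondrial quality control and import, none was called by limma over the 8 tumors, with medians of 0.02 and -0.09; 3 of the first list and 2 of the second had an unadjusted p under 0.05. In the best-match dye fit 1 gene of each of these 2 lists was called higher, Pfdn4 (0.52) and Tomm22 (0.44). Of 28 genes of the endoplasmic reticulum stress response, 2 were higher, the chaperone Calr (0.63 ± 0.48) and the disulfide isomerase Pdia6 (0.40 ± 0.28), and 2 lower, the stress-induced Herpud1 (-1.03 ± 0.39, limma adjusted p = 0.00255) and the translocon subunit Sec61b (-0.50 ± 0.21; SD, n = 8 for each), with 24 not called. In the best-match dye fit limma called 0 of these 28 (7.78% of all genes), with 6 at an unadjusted p under 0.05, and Herpud1 had a limma adjusted p of 0.0974. Without tumors 6 and 7, where 24.8% of all genes were called, 5 of the 28 were higher and 4 lower, and 2 of the 11 prefoldin genes were higher and 1 lower. Of the 26 co-chaperones 2 were then higher and 2 lower, and of the 18 mitochondrial genes limma called 0 (3 at an unadjusted p under 0.05).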

How the data were processed

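Spot intensities of both channels were deposited by the authors without normalization, as mean foreground and median local background, per the file headers from Agilent Feature Extraction 9.5.3.1. The deposited log10 ratio is that program's processed red over green, per the file headers, and the deposited flags (other, 0 or 1) mark outlier, saturated and well-above-background spots. The authors' deposited value table is on the log2 scale and already turned to tumor over pool; no source used here gives its normalization or centring; its column medians lay between -0.07 and 0.14. It served as an alternative to the scanner values.

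Background was corrected by normexp (offset 50), arrays were loess-normalized with 1639 control spots at weight 0, outlier spots were dropped, and ratios were turned to tumor over pool (limma 3.58.1, R 4.3.3). Control spots left 43379 gene spots per array. A probe was kept if either channel was well above background in at least 4 tumors; 30838 of 41174 were. Each gene took its brightest probe. Names were updated through RefSeq (GRCm38.p6) by accession for 22951 probes, by symbol for 6659 and by an older symbol for 3109; 8455 kept the file's name. Both arrays of a labelled tumor were averaged (n = 8) and the mean was tested against 0 by lmFit and eBayes over all genes; the pool counts as 1 control sample. Single genes also had an exact two-sided sign-flip permutation over 256 sign patterns. The number of arrays limits the precision, and 63.5% to 77.6% of spots were well above background in tumor RNA.

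Full values were given for members called both in this fit and in the 12-array fit with dye as a term, and for fixed representatives of each family (Hsf1, Hspa1a, Hspa8, Hspa5, Hspa9, Hsp90aa1, Hsp90ab1, Hsp90b1, Hspb1, Hspd1, Hspe1, Dnaja1, Dnajb1 and Cct2; Hspa1b has no probe of that name); others were named by role. The members and all lists were chosen with earlier results of these data known. The test was checked on simulated data. Alternatives changed the arrays, slides, normalization, background, values, outlier spots, filter, probe choice and tumors.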

Additional observations from a re-analysis of the deposited data

Results flagged for a closer look

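Of 69 members, 8 had a first array that stood apart from the other 7 by Dixon's test at the 95% level, which chance gives in about 1 in 20 groups. Of these, 6 lay in tumor 6: Cct7 at -2.59, Dnajc5 at -2.15, Dnajb10 at -2.10, Cct6b at -2.01 and Hsp90ab1 at -0.62 were low there, and Dnajb9, which encodes a J-domain protein induced by stress of the endoplasmic reticulum, was high at 1.93. The share of all genes that stood apart by this test was not counted. Among all genes measured on every first array, tumor 6 held the highest value of 27.5% and the lowest of 26.3%. Of the 62 members so measured it held the highest value of 14.5% and the lowest of 32.3%. The part of probe position in the tumor 6 values was not tested. The 2 more downstream probes of Dnajb9 gave 1.93 and 1.98 in tumor 6 and its most upstream probe -0.19. Hsp110 was high in tumor 3 at 1.01, where the next highest first array was at -0.26. Dnajc15, which encodes a J-domain protein of the inner mitochondrial membrane, was low in tumor 8 at -1.11, where the next lowest first array was at -0.30.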

How the results depend on the processing

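No background correction and the furthest downstream probe changed no call among the 69 members. For the 16 called members the furthest downstream probe, sought on the accession of the brightest probe, was the brightest probe itself. It therefore could not test whether these calls depend on probe position. The members called by limma were 16 over the 8 tumors, 19 with a dye term and labelled pairs (all genes 4513), 6 with a dye term and best matches paired (all genes 1594), 6 with the slide as a random block (1866), 6 on the first arrays of tumors 1 to 4 (1129), 0 on those of tumors 5 to 8 (5 of all genes), 6 with the Feature Extraction log ratio, 10 with the value table and, in an alternative chosen after seeing the data, 10 without tumors 6 and 7 with dye as a term and best matches paired. The swapped arrays alone called 1650 of all genes. Leaving out 1 tumor called 4 (without tumor 4) to 17 (without tumor 6) members and 1970 (without tumor 4) to 4573 (without tumor 6) of all genes; without tumors 2, 5 or 7 there were 7 members, without tumor 8 there were 8, without tumor 1 there were 9 and without tumor 3 there were 10. On the swapped arrays alone 28 members had another sign than over 8 tumors, of which 19 were called in neither fit. The other 9 were Dnajb12 (0.019), Dnajb6 (1.00), Hspa8 (-0.089), Hsp90ab1 (-0.83), Hsp90b1 (-0.80), Cct2 (-0.10), Cct3 (0.71), Cct6a (1.08) and Hsf1 (-0.81). The share of all genes was not counted for this pattern. For opposite signs of first and swapped means it was 43.2%, against 42.0% of members. The cause was not tested. The sign also turned for Dnajb6 with the dye term and labelled pairs (0.29), for Dnajc19 with median centring (0.30), for Cct2 with the mean over probes (-0.16), and without tumors 6 and 7 for Cct6a (0.44; with the dye term and best matches 0.60) and Hspb6 (0.63; likewise 0.51). Median centring put 71.1% of all calls higher, against 42.8%. The swapped arrays and their doubtful labels limit what can be said of direction. No paired analysis was possible because all samples are of 1 group, each against the same pool.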
